A study of Homo sapiens with 3 samples.

Results

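MAX is a small basic helix-loop-helix leucine zipper protein that binds DNA as a dimer with MYC, with the MXD proteins, MNT or MGA, or with itself. Its best known recognition sequence is the canonical E-box, CACGTG. Dimers with MYC are known for activating genes of growth and ribosome production, and dimers with MXD proteins, MNT or MGA are known for repression. MAX is also known to be found at many active promoters that lack the canonical E-box, and these promoters are the subject here.

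The data came from chromatin immunoprecipitation sequencing in MDA-MB-231, a human triple-negative breast cancer line grown from a pleural effusion. Cells were grown untreated in serum, fixed in formaldehyde, and precipitated with an antibody to MAX or to BMAL1, the circadian clock activator. There was 1 library for MAX with 11545865 tags after filtering, 1 for BMAL1 with 13866783, and 1 input library with 29308882. A bulk precipitation cannot tell apart a site bound in few cells from a site bound weakly in many.

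The peaks described are MAX-only one-strand coding promoters without E-box. They were chosen by 4 criteria applied to the 13650 listed MAX peaks, and so were selected on the peak calls themselves. A peak had to share no base with any of the 756 BMAL1 peaks, which left 13013. At least 1 bp had to lie within 300 bp of the transcription start site (TSS) of a protein-coding transcript, which left 5848. No CACGTG could lie within 100 bp of the summit, which left 4796. Finally, protein-coding TSSs could not start on both strands within 1 kb of the summit. This left 4031 peaks, 29.5% of the MAX list, and they are called members below. Peaks of 1 library are not replicates, so class differences are given as descriptions with no test, and intervals cover counting error only.

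The sequences at the strongest members show what lies at the MAX summit when no canonical E-box is within 100 bp of it. Each line gives 40 bp on both sides of the summit, on the plus strand of GRCh37 (hg19), 5′ to 3′. Capitals mark matches, on either strand, to the 16 short elements searched, which are named with the results. The first 4 come from the 10 members with the highest fold enrichment, and their windows held no annotated untranslated region. The last 4 are the next strongest members with CACGCG, a non-canonical E-box, within that window.
TASOR, chr3:56717431-56717511: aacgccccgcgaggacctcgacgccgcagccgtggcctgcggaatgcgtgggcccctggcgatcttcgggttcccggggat
RPP40, chr6:5004065-5004145: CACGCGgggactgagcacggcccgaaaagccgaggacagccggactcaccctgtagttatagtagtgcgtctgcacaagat
RHBDD1, chr2:227700565-227700645: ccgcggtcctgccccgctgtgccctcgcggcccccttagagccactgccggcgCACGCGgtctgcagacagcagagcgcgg
SPOP, chr17:47755635-47755715: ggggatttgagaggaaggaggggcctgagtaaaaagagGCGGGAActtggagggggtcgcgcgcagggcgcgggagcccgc
TMEM164, chrX:109245548-109245628: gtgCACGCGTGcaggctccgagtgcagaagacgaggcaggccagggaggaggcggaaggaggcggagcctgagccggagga
UBE2S, chr19:55919539-55919619: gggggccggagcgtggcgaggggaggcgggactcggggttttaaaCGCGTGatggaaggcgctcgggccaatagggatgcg
JUNB, chr19:12902088-12902168: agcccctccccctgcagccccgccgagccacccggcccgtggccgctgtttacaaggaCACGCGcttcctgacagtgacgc
CFDP1, chr16:75466969-75467049: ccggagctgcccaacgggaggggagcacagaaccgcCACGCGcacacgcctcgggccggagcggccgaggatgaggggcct
The windows of TASOR, SPOP, TMEM164, UBE2S and JUNB lay outside the annotated coding transcripts, those of RHBDD1 and CFDP1 in introns, and that of RPP40 across coding sequence and an intron. The SPOP match is the E2F-type element GCGGGAA. The peaks of RPP40 and RHBDD1 held a CACGTG farther out, which ended 353 and 159 bp from the summit. At UBE2S the match to CACGCG is printed as its reverse complement.

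The strongest MAX peak of the whole list was a member. It lay at TASOR, which encodes a core subunit of the HUSH silencing complex, and its summit stood at -178 bp relative to the TSS. The fold enrichment there, the ratio of the tag pileup at the summit to the background that the peak caller used there, was 60.8, and its pileup was 78 extended tags. None of the 5 non-canonical E-boxes lay within 100 bp of this summit, and no CACGTG lay anywhere in the 1206 bp peak. Members took 5 of the 10 highest places by fold enrichment, but 16 of the highest 102 (15.7%) and 232 of the highest 1000 (23.2%), against 29.5% of the list as a whole.

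The next members by fold enrichment belonged to genes of varied roles. RPP40, a protein subunit of the RNA-processing enzymes RNase P and RNase MRP, had a fold enrichment of 48.7 at a pileup of 69. RHBDD1, a rhomboid protease, had 44.2, and SPOP, a substrate adaptor of cullin ubiquitin ligases, had 44.1. At ATL3, a GTPase that shapes the endoplasmic reticulum, it was 43.5. These 5 were the members above 40, 0.124% of the class.

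Members between 30 and 40 included TAF4B, a subunit of the general transcription factor TFIID, at 35.9, UBAP2 at 31.9, ZNF644 at 31.2 and ALG8, a glucosyltransferase of N-glycosylation, at 30.1. Of the 10 members with the highest fold enrichment, 8 held a non-canonical E-box within 100 bp of the summit, 4 of them CACGCG. Among all members these shares were 44.5% for any non-canonical E-box and 20.8% for CACGCG. The Wilson interval of 8 of 10, 49.0% to 94.3%, lay above 44.5%. That of 4 of 10, 16.8% to 68.7%, held 20.8%, so the CACGCG count does not set these 10 apart. In 4 of the 10 a CACGTG lay elsewhere in the peak, beyond the 100 bp that the rule covered, against 11.6% of all members. The interval of this count, also 16.8% to 68.7%, lay above 11.6%.

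Fold enrichment and pileup did not order the members alike. The highest pileup was at JUNB, a subunit of the AP-1 transcription factor, with 86 tags and a fold enrichment of 24.3. SMYD5, a lysine methyltransferase, had 83 tags and KDM3A, a histone H3 lysine 9 demethylase, had 75. COX10, an enzyme of heme A synthesis, reached 61 tags at a fold enrichment of 14.1. PDE4DIP also reached 61 tags, but its fold enrichment was 9.74, since the quotient of pileup to fold enrichment, which is the background the caller used, was 6.26 there against 1.28 at TASOR. The value 1.28 was the lowest in the list and equals the genome-wide tag density of the MAX library, which is the caller's floor where the local input is lower. TASOR and 718 members in all (17.8%) stood at this floor or within 1% of it, so their fold enrichment is set by the pileup alone.

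At the other end, ZSCAN18 had the lowest -log10 p, 5.01, with a fold enrichment of 3.38 and 16 tags. AMER1, a regulator of WNT signalling, and GLCCI1 followed at 5.14, each with 11 tags and a fold enrichment of 4.65. The longest members were at CITED2, a partner of the coactivators CBP and p300, with 2051 bp, RPH3AL with 1966 bp and MGA with 1887 bp.

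As a class, members lay between distal peaks and promoters with CACGTG in enrichment. Their fold enrichment had a median of 9.95 (95% order-statistic interval 9.73 to 10.1, n = 4031), with quartiles at 8.04 and 12.3. MAX-only one-strand promoters with a CACGTG at the summit had a median of 12.3 (11.95 to 12.7, n = 908). Divergent promoters without CACGTG, which have coding TSSs on both strands, lay close to the members at 10.2 (10.1 to 10.6, n = 765). MAX-only peaks without CACGTG away from coding promoters had 8.97 (8.88 to 9.07, n = 5755), and coding promoters shared with BMAL1 had 16.5 (15.2 to 17.5, n = 260).

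Pileup and length followed the same order. The median pileup was 18 tags in members, 23 at one-strand promoters with CACGTG and 30 at promoters shared with BMAL1. Median lengths were 475, 565 and 692.5 bp. The background was alike, with a median quotient of 1.75 in members and 1.77 at one-strand promoters with CACGTG. A fold enrichment of at least 20 was found in 106 members (2.63%, Wilson 95% interval 2.18 to 3.17) and in 131 one-strand promoters with CACGTG (14.4%, 12.3 to 16.9).

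**Figure D1:**
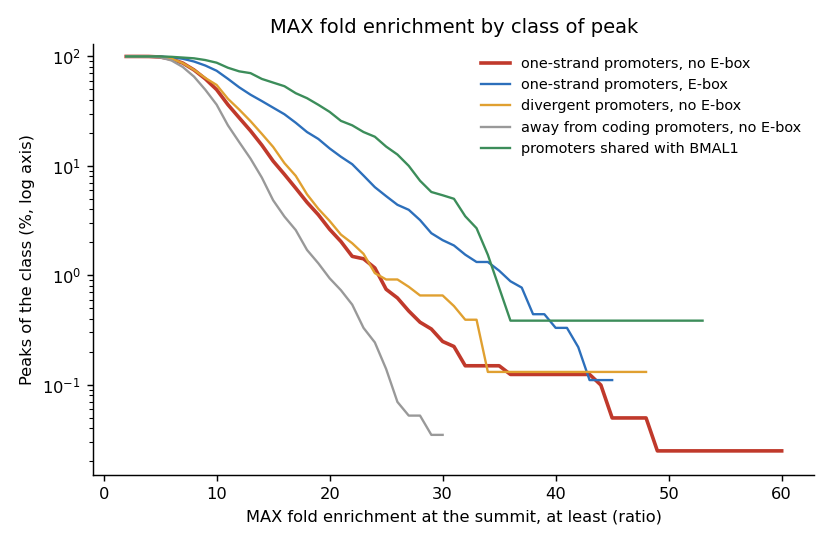
Share of the peaks of each class (log axis) whose MAX fold enrichment (ratio of pileup to the background the caller used) was at least the value on the horizontal axis. Members (thick red line) ran below one-strand promoters with E-box and promoters shared with BMAL1 at 20, with 2.63% against 14.4% and 31.2%, and reached the highest single value, 60.8.

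Summits sat just upstream of the TSS. The median position, counted along the gene from the nearest coding TSS, was -37 bp (interval -43 to -31), with quartiles at -158 and 40 bp, and 2513 summits (62.3%) lay upstream. Within 100 bp of the TSS lay 1910 summits (47.4%), and 679 (16.8%) lay more than 300 bp away and were members through the width of their peak. At one-strand promoters with CACGTG the median was -43 bp, with 39.9% within 100 bp. Divergent promoters had a median of -1 bp and 74.1% within 100 bp. By definition they have coding TSSs on both strands, so their nearest TSS is taken from more TSSs. The part of this in the difference was not tested.

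**Figure D2:**
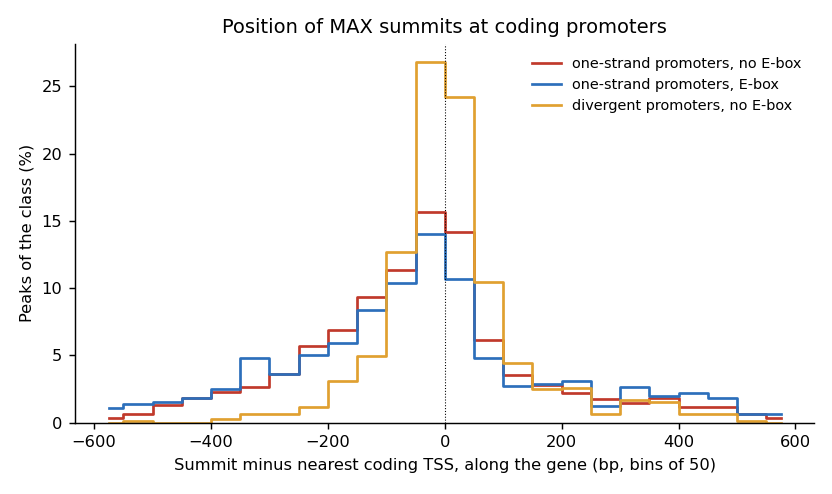
Share of the peaks of each class per 50 bp of signed distance between the MAX summit and the nearest protein-coding TSS, with negative values upstream. Members (red) had 47.4% of summits within 100 bp of the TSS, one-strand promoters with E-box (blue) 39.9% and divergent promoters (orange) 74.1%. Divergent promoters have by definition TSSs on both strands from which the nearest is taken.

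By annotation, 1581 summits (39.2%) lay outside coding transcripts, 1118 (27.7%) in an untranslated region, 1067 (26.5%) in an intron and 265 (6.57%) in coding sequence. The TSS that GENCODE marks as canonical for its gene was within reach of 3362 members (83.4%), with a median fold enrichment of 10.1. The other 669 lay at alternative TSSs, with a median of 9.35. A TSS of a long noncoding RNA started on the opposite strand within 1 kb of 1049 members (26.0%), so one-strand refers to coding genes alone.

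The members just inside each limit of the rule can be set beside the peaks just outside. Among one-strand MAX-only promoters, the 76 members whose nearest CACGTG ended 101 to 120 bp from the summit had a median fold enrichment of 11.7, and the 107 peaks left out because it ended at 81 to 100 bp had 11.6. The closest pair were ACTR3B, a member at 101 bp with a fold enrichment of 17.9, and BCAP31, left out at 100 bp with 11.99. CHCHD7 was a member because its second strand started 1002 bp away, with 8.62, and HNRNPK was left out as divergent at 996 bp, with 14.9. The member closest to a BMAL1 peak was CREBRF, 41 bp away with 8.57. BMAL1 peaks lay within 1 kb of 26 members.

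Canonical E-boxes still occurred in the flanks of some members. A CACGTG lay elsewhere in the peak in 468 members (11.6%, interval 10.7 to 12.6). Their median fold enrichment was 11.5, against 9.69 in the 3563 members with none anywhere in the peak. The former peaks were also longer, with medians of 639.5 and 458 bp, and the part of length in this difference was not tested. Counted over all members, CACGTG occurred 94 times between 100 and 125 bp from the summit and 38 times between 275 and 300 bp.

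Non-canonical E-boxes are sequences that differ from CACGTG in 1 or 2 letters and are known to be bound by MYC and MAX more weakly. Of 5 such words, at least 1 lay within 100 bp of the summit in 1794 members (44.5%, interval 43.0 to 46.0). In windows of the same length 2 kb to either side the share was 19.1%, at the host TSSs of members 35.0%, and at the canonical TSSs of all 19540 coding promoters 26.2%. One-strand promoters with CACGTG held one in 34.1%, divergent promoters in 41.8%. Peaks away from promoters held one in 46.1%, so the total share was not higher in members.

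Among the 5 words CACGCG was the most frequent, in 837 members (20.8%, interval 19.5 to 22.0), against 1.39% in the flanks, 10.8% at all coding promoters, 14.2% at one-strand promoters with CACGTG and 8.38% away from coding promoters. Divergent promoters without CACGTG had nearly the same share as members, 20.3% (17.6 to 23.3). Read at the host TSS, the coding TSS nearest the summit, its share in members was 17.2%. All coding promoters were read at their canonical TSS, and 669 members (16.6%) had no canonical TSS within 300 bp. All coding promoters also include divergent promoters and promoters with CACGTG, so these shares are not matched. CATGCG lay at 9.43% of member summits, 8.68% of their host TSSs and 5.92% of all promoters. For CACGAG these shares were 9.82%, 6.97% and 4.97%. For CACGTT, the E′-box of clock genes, they were 6.82%, 4.34% and 3.20%. For CATGTG they were 8.29%, 5.33% and 5.14%. CATGTG also lay in 10.2% of the flanks of members and 25.8% of peaks away from promoters.

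Since CACGCG holds CpG dinucleotides and promoters are rich in them, it was set beside the 11 other words that use the same 6 letters with the same number of CpGs, counting both strands as 1 word. These words lay at the summits of 7.42% to 22.0% of members. CACGCG, at 20.8%, ranked 2 of 12, behind CGCGCA. Its share at member summits was 1.92 times its share at the TSSs of all coding promoters, the highest of the 12. For the other 11 this ratio was 0.953 to 1.33. The next highest were ACGCGC, which shares a run of 5 letters with CACGCG, and CGCACG, which shares 4. These windows are not centred alike. Read at the host TSS, CACGCG lay in 17.2% of members, against 10.8% of all coding promoters at their canonical TSS. No host TSS share is given for the other 11 words.

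Of the 12 words, CACGCG was also the most concentrated at the summit. It occurred 548 times within 50 bp of a summit and 178 times at 250 to 300 bp, a ratio of 3.08. The other 11 ran from 1.299 to 2.57. CATGCG had a ratio of 3.25 (296 and 91), CACGAG 2.36, CATGTG 2.27 and CACGTT 1.93. GGGCGG, the GC box bound by SP and KLF factors, had a ratio of 1.46.

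**Figure D3:**
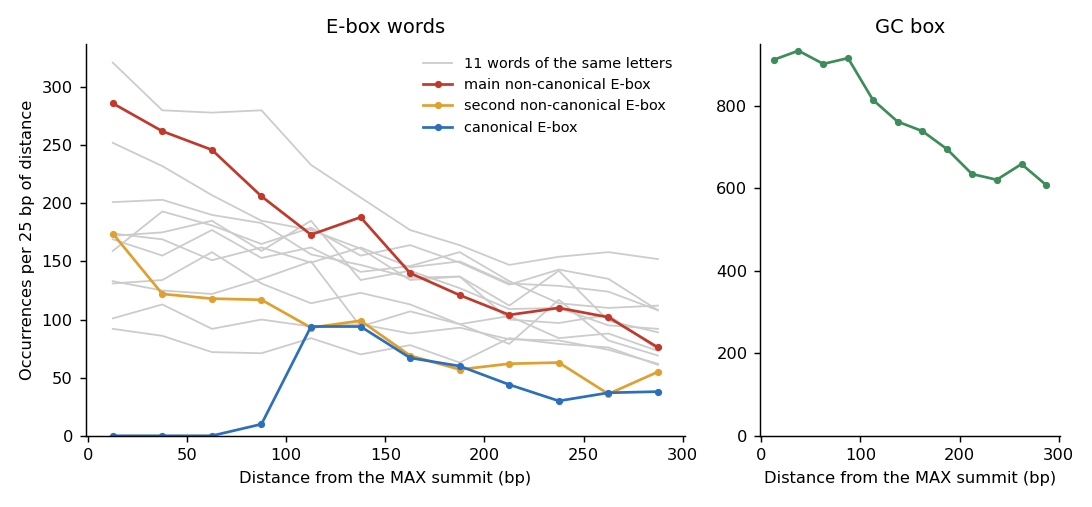
Occurrences of each word over all 4031 members per 25 bp of distance from the MAX summit, on both sides together. The main non-canonical E-box (CACGCG, red) went from 286 in the first 25 bp to 76 at 275 to 300 bp, the second (CATGCG, orange) from 174 to 55. The canonical E-box (CACGTG, blue) was near 0 within 100 bp because the rule removed it, and the GC box (GGGCGG, right) went from 912 to 608.

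The median fold enrichment of members with CACGCG was 10.9 (interval 10.8 to 11.5), against 9.65 (9.52 to 9.76) in the 3194 members without it, and their median pileup was 20 tags against 17. Ordered by fold enrichment and cut into 4 groups of equal size, members held CACGCG in 13.99% of the lowest group, then 17.1%, 20.6% and 31.4% (interval 28.7 to 34.4) of the highest. The ratio of highest to lowest group was 2.25, the highest of the 12 same-letter words, and the others ran from 1.14 to 1.86.

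CpG content moved in the same direction. The median ratio of observed to expected CpGs was 0.793 in the lowest group and 0.881 in the highest, and the median GC content was 64.7% and 66.7%. Within the members at or below the median CpG ratio of 0.832, those with CACGCG had a median fold enrichment of 10.4 (9.87 to 10.9) and those without 9.31 (9.14 to 9.35). Within those above it, the medians were 11.4 (10.9 to 11.7) and 10.1 (10.1 to 10.2). The share of summits within 100 bp of the TSS was 46.5% and 47.8% in the lowest and highest groups, and that of members with a CACGTG elsewhere in the peak was 6.25% and 20.7%.

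The share of promoters that carried a member varied with their CpG content. Of 19540 coding genes with a canonical TSS, 16097 had coding TSSs on 1 strand only within 1 kb and no CACGTG within 100 bp, and 3232 of these (20.1%) had a member within 300 bp. The share was 1.014% for windows of 201 bp with up to 4 CpGs and 5.72% for 5 to 9, then 23.2%, 36.5% and 34.5% for 10 to 14, 15 to 19 and 20 to 24. It was 22.2% for 25 or more. At 10 to 14 CpGs, promoters with CACGCG carried a member in 27.4% (interval 20.1 to 36.3) of cases and those without it in 22.8% (20.7 to 25.04), and at 15 to 19 in 41.9% (36.2 to 47.9) and 35.8% (33.7 to 37.8), with overlapping intervals. Promoters with CACGCG carried a member in 45.9% (interval 41.0 to 50.9) of cases at 20 to 24 CpGs, against 32.7% (30.8 to 34.6) without it. At 25 or more the shares were 27.2% (24.3 to 30.3) and 21.0% (19.7 to 22.4).

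**Figure D4:**
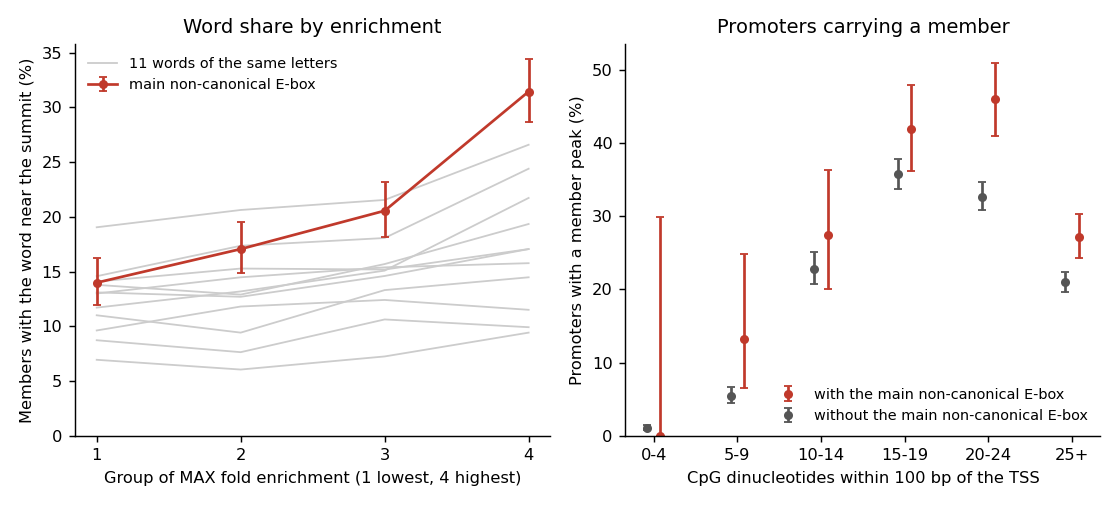
Left, share of members holding the main non-canonical E-box (CACGCG, red, with 95% Wilson intervals) within 100 bp of the summit by group of fold enrichment, from 13.99% to 31.4%, with the 11 other words of the same letters in grey. Right, share of one-strand coding promoters without CACGTG that carried a member, by number of CpGs within 100 bp of the TSS, for promoters with (red) and without (grey) CACGCG and with 95% Wilson intervals. At 20 to 24 CpGs the shares were 45.9% and 32.7%.

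Elements of other promoter factors were counted in the same windows. Members were read at the summit and all promoters at the TSS, so the windows compared are not centred alike. The GC box GGGCGG lay at 54.3% of member summits, 54.1% of all coding promoters and 6.71% of the flanks, and at 62.3% of the host TSSs of members. CCGGAAG, bound by ETS factors, lay at 12.9% of members, 16.2% of their host TSSs and 11.3% of all promoters, and CCAATNA, bound by NF-Y, at 9.70% and 9.97%. GCGGGAA, of the E2F type, lay at 9.25% of members and 5.78% of all promoters. TATAAA, the TATA element, was found at 2.18% of members and 6.57% of all promoters.

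Rarer elements were AAGATGGC of YY1 (3.00%), CGCATGCG of NRF1 (2.65%), ACTACAA, a part of the ZNF143 motif (2.65%), TGACGTCA of CREB (1.91%) and TCTCGCGA of BANP (1.76%), against 3.79%, 1.99%, 1.68%, 2.03% and 1.22% of all promoters. At the host TSSs of members these shares were, in the same order, 4.91%, 3.10%, 2.41%, 2.85% and 2.26%. AAGATGGC was thus less frequent than at all promoters when read at the summit, and more frequent when read at the host TSS. For TGACGTCA the summit interval, 1.53% to 2.38%, held the share of all promoters. Its host TSS interval, 2.38% to 3.41%, lay above that share. CGCATGCG contains CATGCG, and 107 of the 380 members with CATGCG (28.2%) also held it. TGANTCA, bound by AP-1, lay at 4.09% of members and at 27.6% of MAX peaks away from coding promoters. At 618 members (15.3%) none of the 16 elements was found. A match is a sequence in a window, and binding of these factors was not measured.

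Members were found at the promoters of 3881 of 19794 protein-coding genes (19.6%), and any MAX peak at 6426 (32.5%). The genes mostly had 1 member, 3650 of them, and 216 had 2 and 15 had 3 or more. PLEC, which encodes the cytoskeletal linker plectin, had 6 members with fold enrichments of 6.11 to 9.95. SEPTIN9, a septin GTPase, had 5 (6.35 to 11.4), RUNX1, a transcription factor of blood development, had 4 (10.6 to 14.8), MYADM had 4 (6.79 to 12.7) and ACBD5, a peroxisomal acyl-CoA binding protein, had 3 (6.35 to 12.1). At 221 of the 3881 genes (5.69%) a MAX peak of another class also lay at a TSS.

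Genes of protein synthesis were hosts more often than the 19.6% of all coding genes. The gene lists were not matched for CpG content, and its part in these and the following shares was not tested. Among one-strand promoters without CACGTG, 36.5% of those with 15 to 19 CpGs and 34.5% of those with 20 to 24 carried a member. Of 84 cytosolic ribosomal protein genes, 49 (58.3%, interval 47.7 to 68.3) carried a member, and 74 carried some MAX peak. Their members had a median fold enrichment of 11.8, led by RPL31 (24.8), RPLP2 (23.2), RPL5 (21.4) and RPL10A (21.0). Of 81 mitochondrial ribosomal protein genes 30 (37.0%) did, led by MRPL24 (26.6) and MRPS28 (22.9), with a median of 8.91. Aminoacyl-tRNA synthetases, which charge tRNAs, carried members in 17 of 36 genes (47.2%), with TARS1 at 16.4 and CARS2 at 16.3. For translation initiation factors it was 22 of 56 (39.3%), led by EIF4B at 24.2 and EIF3D at 15.2.

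RNA and protein handling genes lay in a similar range, also above the 19.6% of all coding genes. Splicing factors carried members in 37 of 84 genes (44.05%), with SRSF11 at 18.7 and HNRNPL at 18.2. RNA helicases did in 22 of 54 (40.7%), led by the nucleolar helicase DDX21 at 21.7. Ubiquitin-conjugating enzymes did in 15 of 34 (44.1%), led by UBE2S, a partner of the anaphase-promoting complex, at 25.7 and UBE2D2 at 21.8. Proteasome subunits did in 15 of 41 (36.6%), with PSMA5 at 17.1, and chaperones in 26 of 79 (32.9%), with DNAJC10 at 20.3 and the chaperonin subunit CCT8 at 19.04.

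Genes of mitochondria and membrane traffic were closer to the background of 19.6%. Oxidative phosphorylation subunits carried members in 22 of 87 genes (25.3%, interval 17.3 to 35.3), led by UQCR11 at 15.5, and import components and carriers in 19 of 73 (26.0%, 17.3 to 37.1), led by SLC25A16 at 19.2. RAB GTPases of membrane traffic were at 15 of 62 (24.2%, 15.3 to 36.2), led by RAB8A at 16.1. These intervals hold the background.

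Cell cycle genes carried members more often than the 19.6% of all coding genes. Cyclins, their kinases and inhibitors did in 24 of 50 genes (48.0%, interval 34.8 to 61.5), and DNA replication genes in 18 of 43 (41.9%, 28.4 to 56.7). CCNB1, the mitotic cyclin, reached 28.1 and its summit stood at -32 bp from the TSS. CCNG2 followed at 22.6 and CDKN2D, an inhibitor of CDK4 and CDK6, at 21.3. PCNA, the sliding clamp of DNA polymerases, had 20.0 with a summit 513 bp downstream of the nearest TSS, and RFC1, of its clamp loader, had 18.4.

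Zinc finger genes, many of them encoding repressors of transposable elements, were given as a pair of lists, beside the 19.6% of all coding genes. On chromosome 19, where they stand in clusters, 114 of 251 (45.4%, interval 39.4 to 51.6) carried a member, with a median fold enrichment of 9.31. ZNF331 at 21.0 and ZNF8 at 20.8 led them. Elsewhere 87 of 275 did (31.6%, 26.4 to 37.4), with a median of 10.6, led by ZNF644 at 31.2 and ZNF692 at 26.6. CACGCG lay at 17 of the 115 chromosome 19 members (14.8%) and 15 of the 91 others (16.5%), beside 20.8% of all members. These counts are small, no interval is given for them, and the differences were not tested.

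Several lists lay below the background of 19.6%. None of 381 olfactory receptor genes carried a member, which allows a share of up to 0.787% by the limit of 3 counts (Wilson upper bound 0.998%), and these genes had no MAX peak of any class at a TSS. Members lay at 1 of 55 keratins (KRT80, 10.2), 1 of 39 homeobox cluster genes (HOXB9, 12.1), 2 of 73 chemokines and interleukins (CCL28, 9.07, and IL7, 6.03), and 4 of 44 collagens (interval 3.59% to 21.2%, which holds the background), led by COL12A1 at 11.9. Clustered histone genes, which are strongly expressed in dividing cells, carried members in 2 of 69 (H4C8, 11.1, and H2BC6, 10.9). Of 15 germline genes known as targets of the MGA and E2F6 repressor complex, TDRKH carried one, at 20.2, and the interval of 1.19% to 29.8% holds the background.

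**Figure D5:**
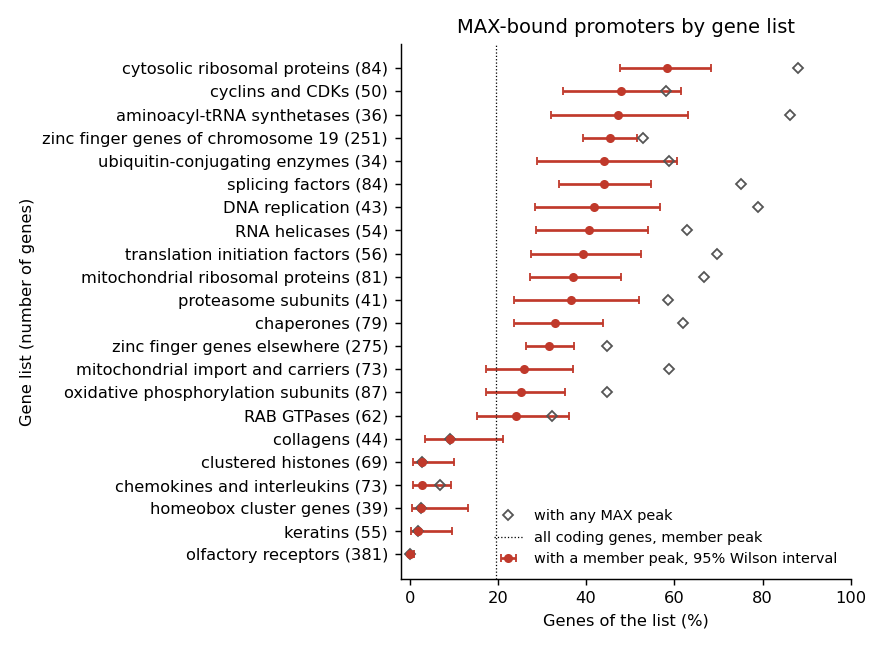
Share of the genes of each list of 30 or more genes that carried a member (red points with 95% Wilson intervals) or any MAX peak (open diamonds) within 300 bp of a coding TSS. The dotted line is the 19.6% of all coding genes with a member. Cytosolic ribosomal protein genes were highest at 58.3% and olfactory receptor genes lowest at 0 of 381.

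Markers of the cell type were read at the level of promoter occupancy, which does not measure expression. Of 15 mesenchymal genes of breast cancer cells, 6 carried a member, among them TGFBI at 14.8, CAV1 at 12.1, VIM, the mesenchymal intermediate filament, at 8.88 and CD44 at 8.34. Of 15 luminal genes 3 did, ERBB3 at 15.6, XBP1 at 14.03 and EPCAM at 12.3. Without a member were 9 of the mesenchymal genes, among them ZEB1, TWIST1 and FN1, and 12 of the luminal genes, among them ESR1, PGR and GATA3. With lists of this size the intervals were wide. The mesenchymal one, 19.8% to 64.3%, began just above the background of 19.6%, and the luminal one, 7.05% to 45.2%, held it.

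In the network of MAX and its partners, MGA and MYC were the genes with members. MGA had a fold enrichment of 24.8 at 41 tags, and its summit stood 320 bp inside the gene. The 1887 bp peak of MGA also held a CACGTG more than 100 bp from the summit. For MYC the fold enrichment was 8.04 at 118 bp upstream and 8.68 at 44 bp downstream. MAX itself (19.04), MXD1 (25.1), MXD4 (23.4), MLX (8.63) and MLXIP (19.7) had a CACGTG at the summit, and the promoter peaks of MNT and MXD3 were shared with BMAL1. In a list of 19 genes, most of them followed by the study by expression or ChIP, 3 had members (15.8%, interval 5.52 to 37.6). These were CDC25C (9.14), CDKN1A, the p21 inhibitor, (5.50) and the reference gene GAPDH (7.25 and 7.65). In the MAX network it was 2 of 13 genes (15.4%, 4.33 to 42.2), and both intervals hold the 19.6% of all coding genes. The clock genes PER1, PER2, CRY1, CRY2 and NR1D1 had promoter peaks shared with BMAL1 and no member.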

How the data were processed

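The authors aligned single reads to hg19 with BWA 0.6.2 and called peaks with MACS2 2.0.9 for MAX and for BMAL1 against 1 shared input. Per the file headers, the p-value cutoff was 1e-05 (the methods give 1e-08), tags were extended to 300 bp, and 1 tag per position was kept for MAX. All listed peaks were used. The deposited pileup is a signal in tags, not scaled to depth, the deposited fold enrichment is its ratio to the larger of the local input background and a genome-wide floor, and the authors' caller also wrote the -log10 p-value and -log10 q-value of each peak. A deeper library would list weaker peaks.

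TSSs came from protein-coding transcripts of GENCODE release 44 mapped to GRCh37, whose chromosome lengths hold all peaks. Overlap was counted at 1 bp. A gene counted as a host when a coding TSS lay within 300 bp of the peak, and a peak was described by its nearest TSS. E-boxes and the other elements were counted on both strands, whole within 100 bp of the summit or TSS. Shares carry Wilson 95% intervals and medians order-statistic intervals. Peaks of 1 library are not independent replicates, so no test was made. The classifier was tested on simulated peaks. Python 3.11.15, pandas 2.3.3, scipy 1.17.1 and pysam 0.24.0 were used.

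Named genes were the 10 members highest in fold enrichment, the next 5 in pileup, the 3 lowest in -log10 p, the 3 longest, up to 5 genes with 3 or more members, members at the edges of the rule, all members at the study's genes and in the MAX network, and up to 4 per other list. Some genes under this rule are not reported here. The classes, the 27 gene lists and the elements were chosen with earlier results of these data known, and no count over them is independent evidence.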

Additional observations from a re-analysis of the deposited data

How the results depend on the processing

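The share of genes moved most with the peak threshold and next with the TSS annotation. Against 4031 members, a median fold enrichment of 9.95, 44.5% with a non-canonical E-box and 19.6% of genes, requiring a -log10 p of at least 12 gave 2230 members, 11.99, 49.1% and 11.2%, and of at least 8 gave a median of 10.2 and 18.1% of genes. Peaks within 1 kb of a TSS gave 9.67 and 22.3%. Barring CACGTG from the whole peak gave 9.69 and 17.5%, and barring both CACGTG and the E′-box within 100 bp of the summit gave 40.4% with a non-canonical E-box, of which it is 1, and 18.4% of genes. The share of genes was 16.8% with summits within 300 bp of a TSS, 20.2% with all transcripts of coding genes, 15.4% with the 5′ end of each gene, 21.7% with divergence counted within 300 bp and 13.9% with TSSs of all gene types counted. The number of members stayed within 1.5 times of 4031 under the 11 alternatives except the -log10 p of 12, and leaving out members within 1 kb of a BMAL1 peak moved none of the 4 values beyond its interval. The pileup is in another unit and was not set beside the fold enrichment. No paired analysis was possible because each antibody has 1 library. The median member rests on 18 tags, so weakly bound promoters may be missing.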

Other observations

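The share of canonical coding TSSs with a member within 300 bp was 17.3% (3371 of 19540) over all chromosomes. It was highest on chromosome 13 (27.0%, Wilson 95% interval 22.5 to 32.2, 86 of 318) and lowest on chromosome X (9.22%, 7.44 to 11.4, 77 of 835). Chromosome 19, which holds many zinc finger genes, was at 20.3%, and chromosome 4 at 12.7%. DNA copy number, which affects tag counts in a cancer line, was not examined.

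Distances from members to BMAL1 follow in part from the rule, which removed overlapping peaks, and from the short list of 756 BMAL1 peaks. No distance for other classes or for all promoters was set beside them. The median distance from a member to the nearest BMAL1 peak was 794216 bp, and 84 members had one within 10000 bp. At 32 genes a member and a promoter peak shared with BMAL1 both lay within 300 bp of a TSS, and 119 genes had both a member and a MAX-only promoter peak with CACGTG.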
